A study of Mus musculus with 6 samples.

Results

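Tfrc, the gene of transferrin receptor 1 (also called CD71), was measured by 1 probe printed as 20 replicate spots on each of 6 arrays, out of 59994 spots and 59709 probes that are neither control spots nor negative probes. The probe was found by its RefSeq accession NM_011638.3, the name that the scanner output gives to all 20 spots. The arrays held RNA of primary microglia, the macrophages of the brain, shaken from mixed glial cultures of newborn C57BL/6 mice. There were 3 arrays of resting microglia, collected after 24 h without stimulation, and 3 arrays of cells given interleukin-4 (IL-4) at 10 ng/ml for 24 h, which served in the study to bring about the M2 state. Nothing in the labels says whether the 3 arrays of a group came from separate cultures, so the spread between them may be partly technical. None of the 10 microglial, 5 astrocyte, 5 oligodendrocyte-lineage or 4 neuronal marker genes listed for the check of cell type was among the probes that carry a RefSeq accession, so the labelled cell type was not checked here. In RNA of whole cultures, fewer cells of a type and less RNA per cell cannot be told apart.

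Transferrin receptor 1 is a homodimer in the plasma membrane that binds iron-loaded transferrin and carries it into endosomes, where the iron is released. The mRNA holds iron-responsive elements downstream of its coding sequence. Iron regulatory proteins bind them when the cell is short of iron, which protects the mRNA from decay. Macrophages and microglia take up, store and export iron, and the balance of these steps is known to differ between polarization states. Of the 27 genes of iron uptake, storage, export and heme synthesis listed for comparison, Tfrc was the only 1 named by an accession on these arrays, so its ligand transferrin, ferritins, ferroportin and the iron regulatory proteins were not analysed here.

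RefSeq lists 2 transcripts of Tfrc, whose starts lie 226 bases apart. The place of the probe within the mRNA was not used here, so its signal is not assigned to either transcript. The stretch before the first start is shown because it lies next to where transcription of the measured gene begins. It comes from the RefSeq promoter table (GRCm38.p6, chr16:32608646-32608905, plus strand) and holds the 250 bases before the first start and 10 bases after it. Capitals mark the match to ACGTG, a form of the core of the hypoxia response element. Other forms of that core were not searched for and are not marked.

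Tfrc promoter: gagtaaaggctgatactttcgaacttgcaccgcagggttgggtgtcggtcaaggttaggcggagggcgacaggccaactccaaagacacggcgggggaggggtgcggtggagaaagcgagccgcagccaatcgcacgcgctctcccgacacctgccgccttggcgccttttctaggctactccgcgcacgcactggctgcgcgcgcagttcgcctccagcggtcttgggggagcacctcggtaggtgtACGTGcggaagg

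ACGTG occurred once in the 300-base window of the first start on either strand, beginning 2 bases before that start, and 19.6% of all 32851 promoter windows of this length held it. The same match lies in the window of the second start, since the windows overlap. Neither window held TTC and GAA with 4 bases between them, the spacing preferred by STAT6, the transcription factor downstream of the IL-4 receptor (6.95% of all windows held it). Neither held the form with 3 bases between, which other STAT proteins bind (8.30% of windows), nor TGACGTNA, a form of the cyclic AMP response element (2.93% of windows). The first window had a GC content of 66.0%, against a median of 52.7% over all windows. These matches describe the letters of the windows and were not measured on the arrays.

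Tfrc gave a bright signal on every array. All 20 spots were well above background on each of the 6 arrays, and 0 were saturated. The mean processed signal, a background-corrected brightness as the scanner software gave it, was 7773, 7348 and 11722 on resting arrays 1, 2 and 3. It was 6873, 40817 and 20765 on IL-4 arrays 1, 2 and 3. IL-4 arrays 2 and 3 thus lay above all resting arrays, and IL-4 array 1 lay below all of them, before any normalization between arrays. On IL-4 array 2 the lowest Tfrc spot, at 35921, exceeded the highest resting spot, at 13002.

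After quantile normalization, which gives the 6 arrays a common distribution of signals and is the method of the study, the log2 level of Tfrc was 12.75, 13.38 and 13.38 on resting arrays 1, 2 and 3. It was 13.39, 14.91 and 13.86 on IL-4 arrays 1, 2 and 3. All 3 IL-4 arrays then stood above the 3 resting arrays, but IL-4 array 1 exceeded resting array 3 by only 0.0058 log2 units, less than the standard error of the mean over spots on these arrays (0.034 and 0.027). Among all 32992 tested probes, the 3 IL-4 arrays lay above the 3 resting arrays in 4.64%. Because Tfrc was chosen with this difference in view, nothing is read from that share.

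**Figure D1:**
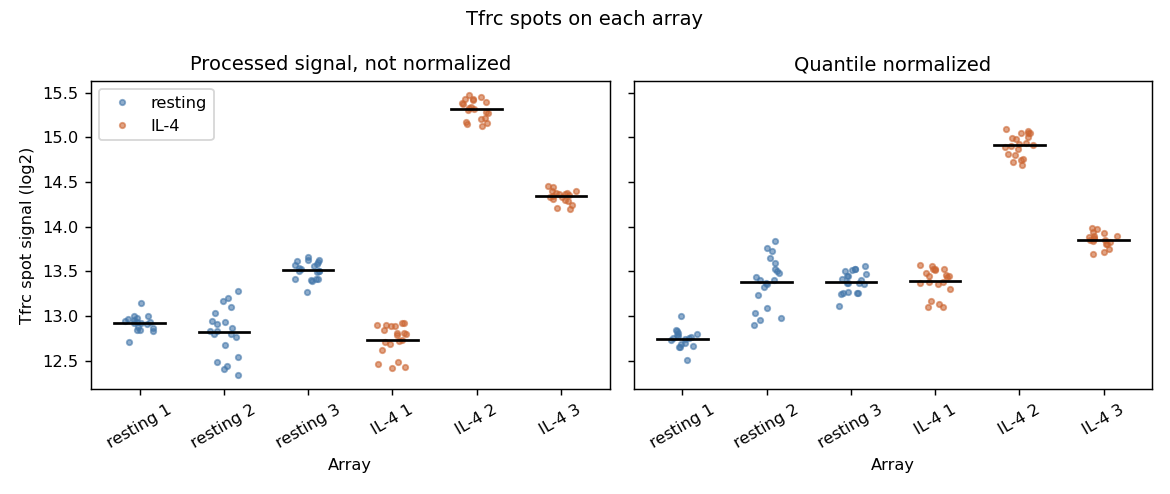
Tfrc signal on the log2 scale (y axis) for each array (x axis), before normalization between arrays (left) and after quantile normalization (right). Each point is 1 spot not flagged as an outlier and each black line is the mean of an array. IL-4 array 1, with a mean of 12.74 on the left and 13.39 on the right, moves from below all resting arrays to the level of resting arrays 2 and 3.

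The mean log2 level was 13.17 ± 0.37 (SD, n = 3 arrays) in resting microglia and 14.05 ± 0.78 (SD, n = 3 arrays) with IL-4. The difference was 0.88 log2 units (SE 0.50), or 1.84-fold higher with IL-4, short of the fold change of 2 that the study set as its limit. Of all tested probes, 3.86% were at least 2-fold higher with IL-4 whatever their P, and 1.11% were so with an unadjusted P from limma of at most 0.05. The median difference of all tested probes was -0.14, and 94.9% of them had a lower difference than Tfrc. In absolute size, 78.7% had a smaller difference. The gene was selected with its change between these arrays known, so the difference is given as a description with no test. With 3 arrays in each group an exact two-sided permutation test cannot give a p under 0.1.

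In 2 of the 3 pairs of IL-4 arrays the difference was larger than that between the group means. IL-4 array 2 exceeded IL-4 array 1 by 2.88-fold and IL-4 array 3 by 2.08-fold, and IL-4 array 3 exceeded IL-4 array 1 by 1.38-fold. Among resting arrays, array 1 was 1.55-fold below both others, and resting arrays 2 and 3 differed by 1.00-fold. The difference from the resting mean was 0.22 log2 units for IL-4 array 1, 1.74 for IL-4 array 2 and 0.68 for IL-4 array 3. Of all tested probes, 59.2% had a lower value of this kind on IL-4 array 1, 95.4% on IL-4 array 2 and 82.2% on IL-4 array 3. The SD of Tfrc was larger than in 41.5% of tested probes over the resting arrays and larger than in 49.9% over the IL-4 arrays.

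The spread over the 20 spots was small beside that over arrays. Pooled over arrays, the SD of spots within an array was 0.16 log2 units. The SD between arrays was 2.35 times as large among resting arrays and 5.01 times as large among IL-4 arrays. In the processed signal the coefficient of variation over spots ran from 4.92% on IL-4 array 3 to 18.6% on resting array 2. The spots of an array share 1 labelled RNA, so they are technical repeats and were averaged to 1 value. Outlier flags removed 2 spots each on resting array 1 and IL-4 array 3 and 0 on the other arrays.

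Spots at the same position were also compared between arrays. IL-4 array 2 was higher at all 20 positions than resting arrays 2 and 3, by means of 1.53 log2 units each. It was higher at all 18 positions unflagged on both arrays than resting array 1, by a mean of 2.16. The smallest of these differences at a single position was 1.08. IL-4 array 3 was higher than resting array 3 at all 18 shared positions, by 0.36 to 0.64, and than resting array 2 at all 18, by 0.018 to 0.98. IL-4 array 1 was higher than resting array 1 at all 18 positions. Against each of resting arrays 2 and 3 it was higher at only 10 of 20. Positions are repeats of the same pair of RNAs, and these counts say nothing of the spread between cultures.

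On every array but resting array 2, Tfrc spot signals also moved with the row in which the spot lay, though not all in the same direction. Pearson's r between row and normalized Tfrc signal over the 18 to 20 unflagged spots was 0.53, -0.09 and 0.57 on resting arrays 1, 2 and 3, and -0.56, 0.49 and 0.56 on IL-4 arrays 1, 2 and 3. A fitted line changed by at most 0.24 log2 units in size from the first to the last row, with the fall of that size on IL-4 array 1. Of the 13 other tested genes with replicate spots, 7 to 11 had an r of the same sign as Tfrc on a given array, with 7 on resting array 3 and 11 on IL-4 array 2. The spots lie across the rows of each array at the same places.

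Measured by the median of the negative probes, background on the arrays was low beside Tfrc. The brightest negative probe still reached 33775 on resting array 2, where the highest Tfrc spot gave 9981. On each other array it lay below the lowest Tfrc spot. The negative probes had a median processed signal of 2.67 to 7.37 on 5 arrays and of 71.2 on IL-4 array 2, the array with the highest Tfrc. On that array the Tfrc signal was 573 times the negative-probe median, the lowest such ratio, against 1405 to 4387 times on the other arrays. The median signal over all spots was also highest there, at 125.2 against 12.3 to 26.4 on the other arrays, and 80.7% of all probes were well above background against 38.2% to 61.5%. Of the negative probes themselves, 67.7% passed as well above background on this array, where no other array exceeded 11.0%. The part of these properties in the Tfrc level of that array was not tested. IL-4 array 2 was read in the same scan as the 3 resting arrays, whereas IL-4 arrays 1 and 3 had 1 scan each with no other array in it. With quantile normalization of the arrays of the shared scan alone, IL-4 array 2 exceeded the mean of the resting arrays by 1.72 log2 units, a value from 1 IL-4 array with no replicate. The scans of IL-4 arrays 1 and 3 hold no resting array, so for them scan and condition cannot be told apart.

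The order of the arrays depended on how they were scaled. With each array scaled to its 75th percentile, Tfrc was 0.64 log2 units higher with IL-4 (SE 0.51), and IL-4 array 1 lay below resting arrays 2 and 3. Without normalization the difference was 1.05 (SE 0.78), or 2.06-fold. All tested probes shifted by a median of 0.32 log2 units toward IL-4 in that setting and by -0.08 with the 75th percentile. In both of these settings 2 of the 3 IL-4 arrays stood above all resting arrays, and they were the same pair, IL-4 arrays 2 and 3.

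**Figure D2:**
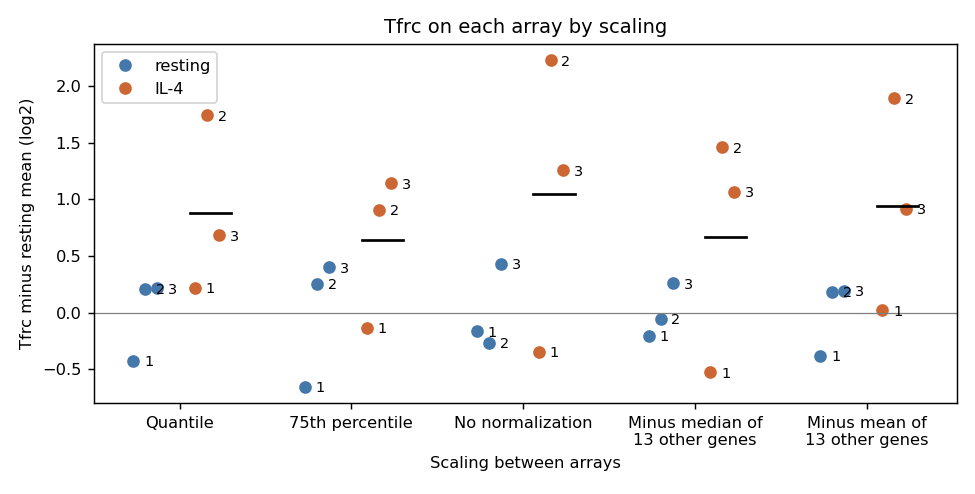
Tfrc level of each array minus the mean of the resting arrays (y axis, log2 units) under 5 ways of scaling arrays (x axis). Points are arrays, labelled with the replicate number, and black lines are means of the IL-4 arrays. IL-4 arrays 2 and 3 lie above the resting arrays under each scaling, and IL-4 array 1 runs from -0.53 to 0.22.

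The array carries 14 other genes with 20 spots each, among them genes often used as references for expression. Of these, 13 were tested and Ldhal6b, which was well above background on 0 of the 6 arrays, was not. Relative to the median level of the 13, Tfrc had log2 values of -1.22, -1.07 and -0.75 on the resting arrays and of -1.54, 0.45 and 0.05 on the IL-4 arrays. That median is the level of a single gene on each array, Hsp90ab1 on resting array 1 and Gusb on the other 5. Gusb, a lysosomal beta-glucuronidase, itself lay 0.75, 0.28 and -0.38 log2 units from its resting mean on IL-4 arrays 1, 2 and 3, and these shifts enter the values with the opposite sign. The difference between groups was 0.67 log2 units (SE 0.62), with an SD of 0.24 over the resting arrays and of 1.05 over the IL-4 arrays. Relative to the mean of the 13, a reference chosen after seeing the data, Tfrc had values of -0.91, -0.34 and -0.33 on the resting arrays and of -0.51, 1.37 and 0.39 on the IL-4 arrays. The difference was then 0.94 (SE 0.57). IL-4 arrays 2 and 3 lay above all resting arrays with either reference. IL-4 array 1 lay below all of them only with the median, and between resting array 1 and the other resting arrays with the mean.

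Of the 15 genes with replicate spots, Tfrc had the largest difference with IL-4 under quantile normalization, the 75th percentile and no normalization. With the 75th percentile its lead was small, at 0.64 against 0.62 for Ldhal6b, which was well above background on 0 arrays. Without normalization the values were 1.05 for Tfrc and 1.02 for Ldhal6b, and under quantile normalization Ldhal6b had -0.14. Tfrc also had the largest SD of the 15 over the resting arrays. Under quantile normalization the neighbour of Tfrc was Rpl13a, a protein of the large ribosomal subunit, at 0.76 log2 units. Rpl13a had levels of 11.83, 12.09 and 11.90 on the resting arrays and of 12.65, 12.94 and 12.51 on the IL-4 arrays. Its 3 IL-4 arrays all stood above the resting arrays, with an SD of 0.22 over the IL-4 arrays against 0.78 for Tfrc. The gap between the differences of both genes is smaller than the SD of either group for Tfrc. Without IL-4 array 2, and with the same normalized values, the difference was 0.45 for Tfrc and 0.64 for Rpl13a, so the order of the pair turned.

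Next came Gusb at 0.22. Some common reference genes had differences near 0 under quantile normalization. Actb (cytoplasmic actin) had 0.03 and Gapdh (a glycolytic enzyme) had -0.01. Ppia (a peptidyl-prolyl isomerase) had -0.10 and B2m (the light chain of MHC class I) had -0.11. With the 75th percentile Actb, Gapdh, Ppia and B2m had -0.08, -0.30, -0.22 and -0.34. Without normalization they had 0.32, 0.11, 0.19 and 0.07. Under quantile normalization Hprt, an enzyme of purine salvage, had -0.43. The lowest value was that of Gk, glycerol kinase, at -0.63, where IL-4 array 2 had a difference of -1.88 from the resting mean. The sign for Gk depended on the scaling, with -0.23 for the 75th percentile and 0.17 without normalization, and without IL-4 array 2 the quantile normalized difference was -0.0079.

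**Figure D3:**
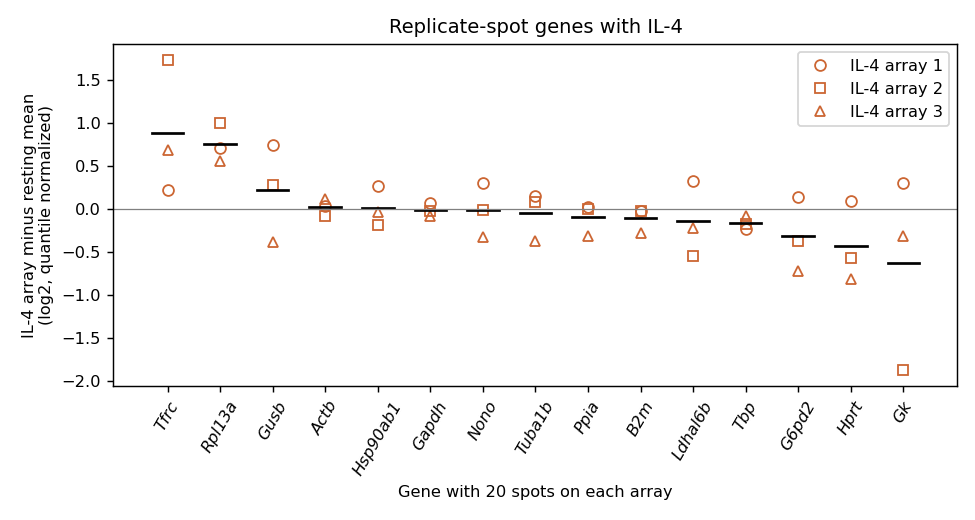
Level on each IL-4 array minus the mean of the 3 resting arrays (y axis, quantile normalized log2 units) for the 15 genes with 20 spots on each array (x axis). Symbols are the 3 IL-4 arrays and black lines their means. Tfrc and Rpl13a stand highest, at means of 0.88 and 0.76, and Tfrc spans 0.22 to 1.74.

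The profile of Tfrc over the 6 arrays was set against those of the 74 other tested probes named by an accession. The highest Pearson's r was 0.89 with B020031M17Rik, 0.83 with Rpl13a (Spearman's rho 0.89) and 0.76 with NM_001008551, an accession without a symbol in the table used. The lowest were -0.92 with Nlrp4g, a gene of the NLR family, -0.89 with Vmn1r157, a vomeronasal receptor gene, and -0.89 with Gk. Spearman's rho was 0.71 for B020031M17Rik, 0.94 for NM_001008551, and -0.60, -0.43 and -0.43 for Nlrp4g, Vmn1r157 and Gk. These last 3 were dim on IL-4 array 2, at log2 levels of 4.43, 3.05 and 4.52. B020031M17Rik was well above background on only 4 arrays and Vmn1r157 on 5. The correlations are descriptions over 6 arrays that share their normalization, and the probes were picked from 74. Without the 2 arrays farthest from the median Tfrc level, IL-4 array 2 and resting array 1, r became -0.19 for B020031M17Rik, 0.43 for Rpl13a and 0.48 for NM_001008551. For Nlrp4g, Vmn1r157 and Gk it was -0.74, -0.94 and -0.83 over the 4 arrays left, which span a narrower range of Tfrc levels. Without IL-4 array 2 alone, r was 0.47, 0.66 and 0.87 for the first 3 genes and -0.59, -0.48 and -0.37 for Nlrp4g, Vmn1r157 and Gk.

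The mean difference moved most with IL-4 array 2. Without it, and with normalization repeated on the 5 arrays left, Tfrc was 0.45 log2 units higher with IL-4, and without IL-4 array 1 it was 1.21 higher. Leaving out a resting array or IL-4 array 3 gave 0.68 to 0.99. The sign was the same in all 14 settings tried, which reuse the same arrays and are not independent. Among these settings, the replicate block cannot change the difference, since each replicate number holds an array of each group. The difference reached the limit of 2-fold in 4 of the 14 settings. Those 4 were no normalization, leaving out IL-4 array 1, the scan as a block and the shared scan alone.

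**Figure D4:**
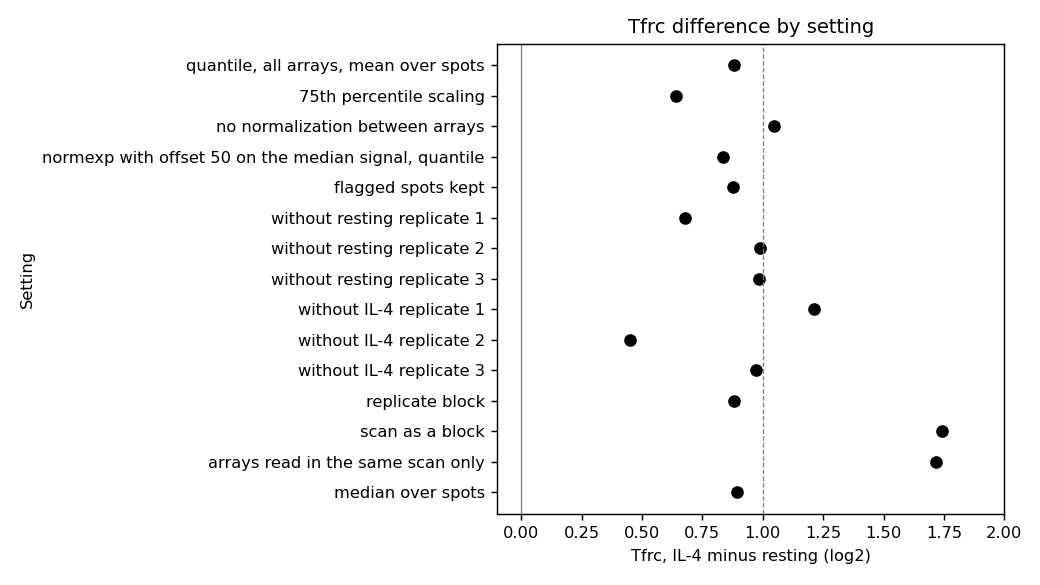
Tfrc difference between IL-4 and resting arrays in log2 units (x axis) under each setting (y axis), with a solid line at 0 and a dashed line at a fold change of 2. The values run from 0.45 without IL-4 replicate 2 to 1.74 with the scan as a block, and all lie above 0.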

How the data were processed

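RNA of 3 resting and 3 IL-4 arrays was labelled with Cy3 and hybridized in 1 colour to the Mouse LncRNA Array V2.0. The authors deposited scanner files written by Agilent Feature Extraction (version 10.7.3.1), in which the intensity called processed signal has had background removed and has not been normalized between arrays. The authors' table of log2 values was not used. Groups and replicate numbers came from the sample titles.

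Control spots and negative probes were left out, and log2 processed signals were quantile normalized between arrays, as in the methods of the study. Spots flagged as outliers (15 to 105 per array) were then dropped and replicate spots averaged. A probe was tested when on at least 3 arrays, 50% or more of its spots were flagged well above background, and each group had at least 2 arrays with an unflagged spot. The 32992 tested probes entered a fit of condition alone in limma (version 3.58.1) under R 4.3.3. At the study's limits, an unadjusted P of at most 0.05 with a change of at least 2-fold, 1622 probes (4.92%) were called, 366 of them (1.11%) higher with IL-4. With Benjamini-Hochberg adjusted P over the tested probes, limma called 0, and 1723 had an unadjusted P of at most 0.05 whatever their fold change. The fit was tested on simulated data. Tfrc itself was given no test. The number of arrays limits the precision.

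Of 123 probes named by a RefSeq accession, 116 were matched to a symbol without the version (GRCm38.p6 annotation, for names only). The array was designed on mm9, so the coordinates printed for the promoter are those of the RefSeq table and not of the array. Genes to be named were Tfrc, members of the iron list, the 3 named probes with the highest and the 3 with the lowest r with Tfrc, and the neighbours of Tfrc among genes with replicate spots. The further genes with replicate spots that are named (Gusb, Actb, Gapdh, Ppia, B2m, Hprt and Ldhal6b) were chosen after their values were seen, and the order of levels was not used, since levels of different probes are not comparable. None of the 6 genes listed as IL-4 response markers was among the probes named by a RefSeq accession. Probes with other kinds of names were not searched for them. The gene, the lists and the tests were chosen with earlier results of these data known. Figures were drawn with matplotlib (version 3.10.9).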

Additional observations from a re-analysis of the deposited data

How the results depend on the processing

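The Tfrc difference of 0.88 moved by less than the SD between arrays with the 75th percentile, no normalization, normexp on the median spot signal, flagged spots kept and the median over spots. Leaving out 1 array gave 0.45 to 1.21, lowest without IL-4 replicate 2. It was 1.74 with the scan as a block and 1.72 on the arrays of the shared scan, since both set only IL-4 array 2 against the resting arrays. Relative to the replicate-spot genes the difference of 0.67 became 1.46 and 1.44 in these settings, and ran from 0.26, without IL-4 replicate 2, to 1.26, without IL-4 replicate 1, when 1 array was left out. With all tested probes as the reference it was 1.00, and 0.94 both with the mean of the replicate-spot genes and with the median of their shifts from the resting means, alternatives chosen after seeing the data.

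The 1622 called probes became 373 with no normalization, 266 with normexp, 829 with the methods' t-test, 478 with the filter on all 6 arrays, over fewer probes, 3108 with no filter, over more, 8869 with the scan as a block and 8442 on the shared scan, where the lone IL-4 array is assumed to vary like the resting arrays. Leaving out 1 array gave 673, without resting replicate 3, to 3773, without IL-4 replicate 1. Where no reason is given the cause was not tested. The adjusted count was 0 in all settings but the shared scan (1907).

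With a replicate block the count was 1603 and the Tfrc difference 0.88, which such a block cannot change in this balanced design. Arrays with the same number had deviations from the group mean that correlated at -0.22, 0.14 and -0.09 across probes, so the number was not taken to pair them. Tfrc spots were flagged well above background on every array, a flag that 67.7% of negative probes also passed on IL-4 array 2. The part of background in the Tfrc difference was not tested.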
